A study of Danio rerio with 12 samples.

Results

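The cohesin and SMC5/6 subunit genes were examined in head RNA of rb1 mutant and wild-type zebrafish larvae. The 10 genes were smc1a, smc1al, smc3, rad21a, rad21b, stag1b, stag2b, esco2, smc5 and smc6, taken by gene name from the 32266 rows of the deposited count table. Where a name occurred on more than 1 row, the identifier with more counts was used. The list was named with earlier results of these data in view, and it holds subunits together with 1 enzyme, esco2, that modifies the ring. The rb1 mutant larvae (genotype rb1-/-) were homozygous for a small frameshift deletion in an early exon of rb1, the zebrafish retinoblastoma tumor suppressor gene, and the controls were wildtype +/+ larvae from incrosses of heterozygous carriers. All larvae were of the WIK background and were sampled at 5 days post fertilization. Each genotype had 3 RNA pools of 5 heads that were genotyped individually, and each pool gave 1 library that was sequenced in 2 lanes. A pool hides differences between larvae, and a whole head mixes brain, eye, muscle, blood and other tissues.

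Cohesin is a ring of an SMC1 and an SMC3 protein closed by the kleisin RAD21 and bound by a STAG protein, and it both forms chromatin loops and holds sister chromatids together from DNA replication until anaphase. Sister chromatid cohesion is established in S phase when the acetyltransferase ESCO2 modifies SMC3, and it ends when separase cuts RAD21. SMC5 and SMC6 form the core of a related ring that acts in recombinational repair and in the handling of stalled replication forks. Loop formation goes on in postmitotic neurons as well, so ring subunits are made in dividing and nondividing neural cells, whereas ESCO2 is known as an S-phase gene.

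The summed counts per library ran from 41065256 to 47700950. The lanes of a library differed by no more than sampling noise (chi-square over degrees of freedom 0.991 to 1.01) and were summed, so that n = 3 per genotype. As a check of the labels, rb1 (ENSDARG00000006782) was read first: mutant pools 1, 2 and 3 held 570, 491 and 422 of its reads, and the wild-type pools held 1221, 830 and 826. Every mutant pool was below every wild-type pool (log2 fold change −1.09 ± 0.16 SE, edgeR quasi-likelihood test, adjusted p = 0.0121, and 0.0585 without wild-type pool 2). In the edgeR test 870 of 22753 genes tested rose in the mutant (3.82%) and 493 fell (2.17%), with an adjusted p limit of 0.05. The study's own, stricter threshold combines an adjusted p limit of 0.01 with a 1.5-fold minimum, and 0.897% of genes were higher and 0.286% lower by it.

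To set the genes side by side, their levels were compared per transcript length, as the FPKM values (reads scaled to gene length and library total) that the authors deposited. In the wild type rad21a stood first at 105 ± 2.57 FPKM (SD, n = 3), followed by smc3 at 43.9 ± 1.48. Next came stag2b (35.2 ± 0.783), smc1al (34.5 ± 1.86) and rad21b (29.7 ± 1.19 FPKM), and then stag1b (15.4 ± 0.563) and smc1a (12.8 ± 1.33 FPKM). The lowest levels were those of smc5 (7.39 ± 0.255), esco2 (6.43 ± 2.19) and smc6 (1.58 ± 0.229 FPKM). The highest and lowest wild-type levels thus lay 66.6-fold apart, and the pools of stag2b and smc1al, and those of smc5 and esco2, overlapped. In the mutant rad21a (152 ± 1.25 FPKM) and smc3 (65.2 ± 4.64) again led and smc6 (1.95 ± 0.126) was again last. The order differed in 2 places. The level of smc1al (45.2 ± 0.171 FPKM) stood above that of stag2b (38.6 ± 2.60), with pools apart. That of esco2 (14.7 ± 1.12 FPKM) stood above smc5 (8.64 ± 0.577), with pools apart, and beside smc1a (12.7 ± 3.50), with overlapping pools. The mutant pools of stag2b and rad21b overlapped as well.

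**Figure D1:**
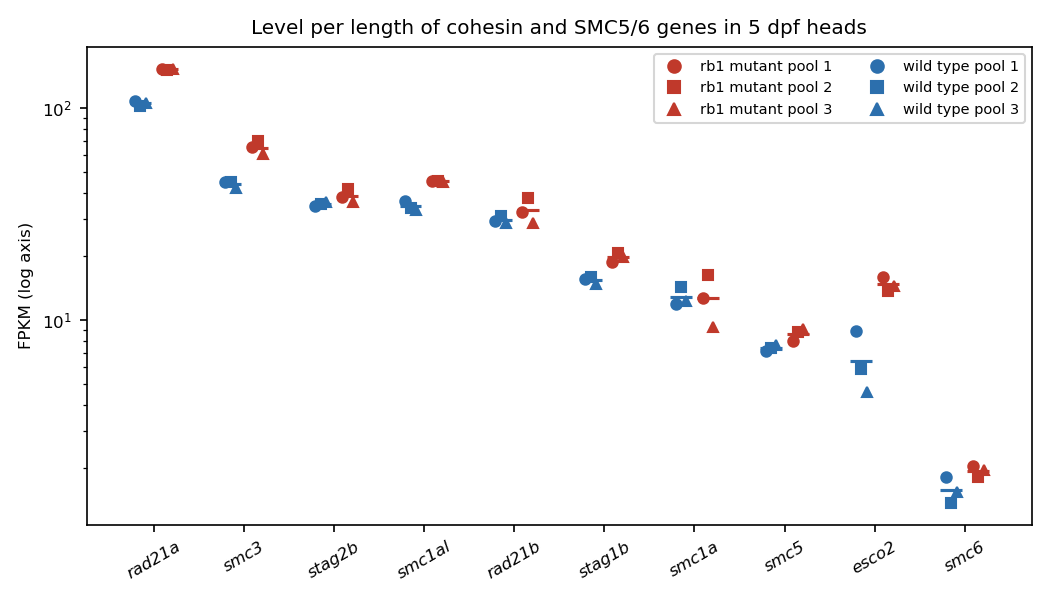
Level of each of the 10 genes in FPKM on a log axis, with 1 point per pool (red mutant, blue wild type) and short lines at the mean of 3 pools per genotype. rad21a is the highest in both genotypes, smc6 the lowest, and esco2 moves from 6.43 FPKM in the wild type to 14.7 in the mutant.

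The comparison of mutant with wild type asks whether loss of Rb1 changed the RNA of these subunits. All 10 genes passed the filter on low counts. The acetyltransferase gene esco2, the ring subunit gene smc3 and the kleisin gene rad21a rose in the edgeR test at an adjusted p of at most 0.05. Of the 10 genes, 3 had therefore risen against 3.82% of all genes tested, and none reached the study's threshold against 0.897%. In DESeq2 1 of the 10 reached that threshold, but more of all genes were higher by it too (646, against 204 in edgeR). None of the 10 fell in edgeR (2.17% of all genes did) or DESeq2. Without adjustment 5 were higher and 0 lower at a p under 0.05, but the share of all genes at that limit was not computed. In 7 of the 10 every mutant pool lay above every wild-type pool in CPM (counts scaled to a common library total after TMM normalization), which held for 16.1% of all genes tested, 9 had a log2 fold change above 0, as 48.2% of all genes did, and 1, esco2, was at least 1.5-fold higher, as 5.44% were. The median log2 fold change of the 10 was 0.27, and that of all genes tested was −0.01. The count of 3 depended on which pools were kept, and was 0 without mutant pool 1, wild-type pool 2 or wild-type pool 3, 1 (esco2) without wild-type pool 1, 2 (smc3 and rad21a) without mutant pool 3, and 3 without mutant pool 2. With DESeq2 or with scaling by total counts it was 5, smc1al and stag1b being added. The number of all genes that rose grew as well, from 870 to 1463 with DESeq2 and to 1316 with total counts. In bulk tissue, more cells that make an RNA and more RNA per cell cannot be told apart. RNA of 8 proliferating cell markers, taken as one sum, stood at 1387, 1232 and 1331 CPM in the mutant pools and at 750, 580 and 491 CPM in the wild-type pools, with 7 of the 8 risen (4 to 8 on leaving out 1 pool, lowest without wild-type pool 2). The part of this difference in the cohesin gene changes was not tested.

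**Figure D2:**
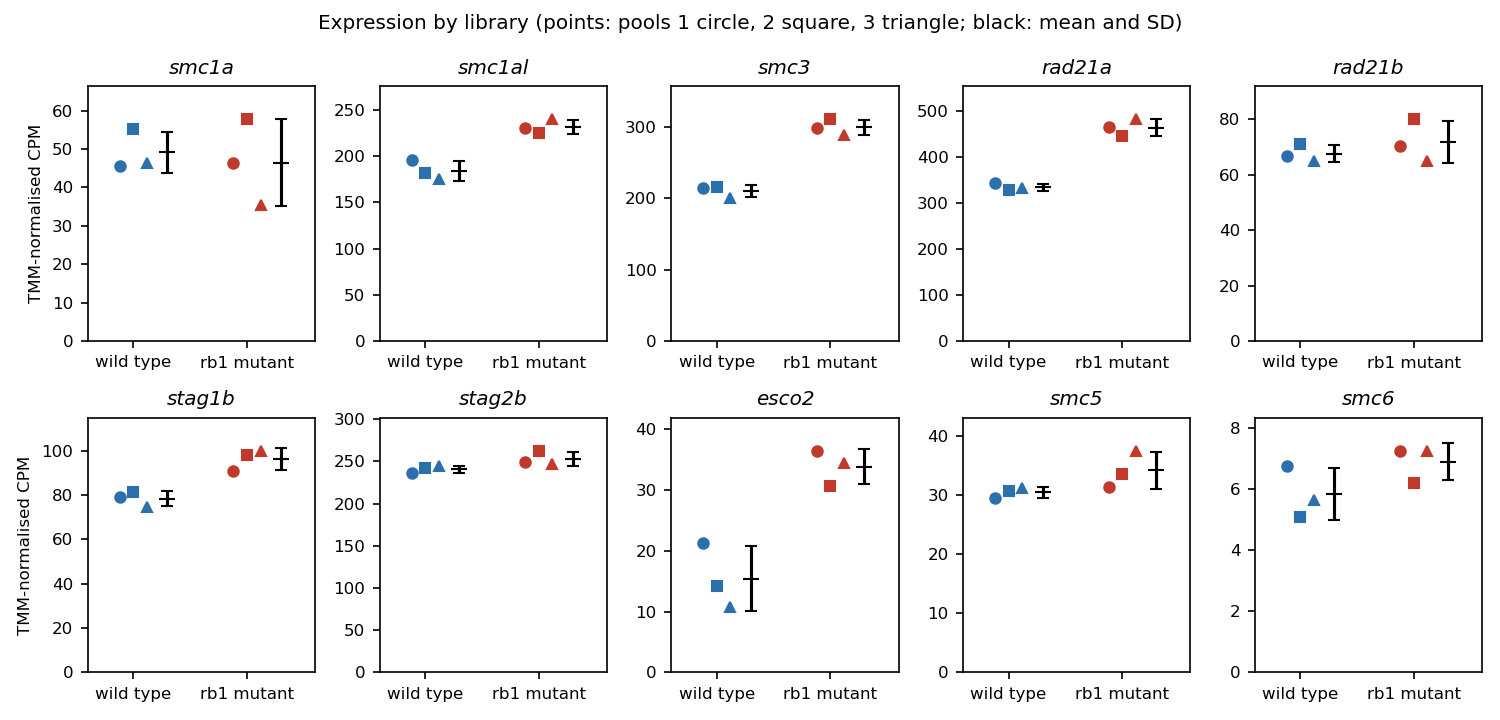
CPM of each gene in every pool, 1 panel per gene, each axis from 0, with points for the 3 mutant (red) and 3 wild-type (blue) pools and black bars for the mean and SD. The groups separate for smc1al, smc3, rad21a, stag1b, stag2b, esco2 and smc5 and overlap for smc1a, rad21b and smc6.

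Of the SMC ring arms, smc3 (ENSDARG00000019000), whose product is the target of ESCO2, changed most. It was at 299, 311 and 289 CPM in mutant pools 1, 2 and 3 and at 214, 216 and 200 CPM in the wild-type pools. The lowest mutant pool was well above the highest wild-type pool. The mutant level was 1.42-fold the wild-type level (log2 fold change 0.51 ± 0.09 SE, 95% interval 0.31 to 0.71, edgeR adjusted p = 0.0190). Leaving out 1 pool at a time kept the log2 fold change between 0.48 and 0.53, but the edgeR adjusted p exceeded 0.05 without mutant pool 1 (0.111) and without wild-type pool 1 (0.0505), 2 (0.105) or 3 (0.0745).

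The partner of SMC3 is encoded by a pair of zebrafish paralogues, smc1a (ENSDARG00000055754) and smc1al (ENSDARG00000058203). The more abundant of them, smc1al, was at 231, 225 and 240 CPM in the mutant pools and at 196, 182 and 175 CPM in the wild-type pools. These groups did not overlap, but the difference missed the threshold in the edgeR test (log2 fold change 0.33 ± 0.09 SE, 95% interval 0.12 to 0.54, adjusted p = 0.0737). It passed with total-count scaling (adjusted p = 0.0362) and in DESeq2 (adjusted p = 0.0143). For smc1a the mutant pools had 46.4, 57.8 and 35.3 CPM and the wild-type pools 45.6, 55.3 and 46.4 CPM. The mutant pools held both the highest and the lowest value of this gene, and no difference was found (log2 fold change −0.08, 95% interval −0.49 to 0.33, edgeR adjusted p = 0.838). Its sign turned without mutant pool 3 (0.08) and without wild-type pool 2 (0.01). Only uniquely aligned reads were counted, so reads from sequence that the paralogues share are in neither value.

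The kleisin RAD21 is the subunit that separase cuts, and it is encoded by rad21a and rad21b. rad21a (ENSDARG00000006092) was at 465, 446 and 483 CPM in the mutant pools and at 344, 328 and 332 CPM in the wild-type pools. Every mutant pool was well above every wild-type pool, a 1.39-fold rise (log2 fold change 0.47 ± 0.09 SE, 95% interval 0.27 to 0.67, edgeR adjusted p = 0.0231). This call too was lost without mutant pool 1 (edgeR adjusted p = 0.130) and without wild-type pool 1 (0.0561), 2 (0.137) or 3 (0.0802), the log2 fold change staying between 0.44 and 0.50. For rad21b (ENSDARG00000035655) the mutant pools had 70.2, 80.0 and 65.1 CPM and the wild-type pools 66.7, 71.1 and 65.0 CPM. These groups overlapped, and the interval of the difference allowed a small change either way (log2 fold change 0.09, 95% interval −0.15 to 0.32, edgeR adjusted p = 0.674).

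STAG proteins dock on the kleisin and guide where cohesin sits on chromatin. stag1b (ENSDARG00000062137) was at 90.9, 98.1 and 100 CPM in the mutant pools and at 79.2, 81.3 and 74.6 CPM in the wild-type pools. The groups were separate, with a difference that missed the threshold in edgeR (log2 fold change 0.30 ± 0.09 SE, 95% interval 0.10 to 0.50, adjusted p = 0.0896) and passed it with total-count scaling (adjusted p = 0.0490) and in DESeq2 (adjusted p = 0.0390). The most abundant STAG gene, stag2b (ENSDARG00000053668), had 249, 262 and 247 CPM in the mutant pools and 236, 242 and 244 CPM in the wild-type pools. Its groups also did not overlap, but the means differed by only 1.05-fold (log2 fold change 0.07, 95% interval −0.12 to 0.26, edgeR adjusted p = 0.673).

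The largest change of the 10 genes was that of esco2 (ENSDARG00000014685). Its counts were 1783, 1528 and 1525 in the mutant pools and 965, 565 and 487 in the wild-type pools, or 36.4, 30.6 and 34.4 CPM against 21.2, 14.1 and 10.8 CPM. The mutant pools were close together and the wild-type pools were spread, with wild-type pool 1 the highest of them. The mutant mean was 33.8 ± 2.93 CPM and the wild-type mean 15.4 ± 5.30 CPM (SD, n = 3 each), a 2.20-fold rise (log2 fold change 1.14 ± 0.23 SE, 95% interval 0.61 to 1.66, edgeR adjusted p = 0.0306). Wild-type pool 1 mattered most for its size: without it the log2 fold change was 1.44 and the edgeR adjusted p 0.00848, which reaches the study's threshold. The call was lost without mutant pool 1 (edgeR adjusted p = 0.125), mutant pool 3 (0.0522), wild-type pool 2 (0.141) or wild-type pool 3 (0.0671), and the log2 fold change over all 6 omissions was 0.94 to 1.44. In the RefSeq annotation of another zebrafish assembly the span of esco2 overlapped 14 other protein-coding genes, of which pbk, a mitotic kinase gene, rose as well (log2 fold change 1.06, edgeR adjusted p = 0.00362). The changes of the other overlapping genes are not given here. Whether reads were assigned by strand is not given in the sources used here, so reads of esco2 and of overlapping genes may not be fully separated.

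The paired ring genes smc5 (ENSDARG00000044282) and smc6 (ENSDARG00000091821) did not pass the test. smc5 was at 31.4, 33.6 and 37.5 CPM in the mutant pools and at 29.4, 30.7 and 31.2 CPM in the wild-type pools, so that mutant pool 1 was just above the highest wild-type pool (log2 fold change 0.17, 95% interval −0.05 to 0.39, edgeR adjusted p = 0.345). smc6 was the lowest of the 10 genes, at 7.25, 6.21 and 7.26 CPM in the mutant and 6.76, 5.10 and 5.64 CPM in the wild type, and its groups overlapped (log2 fold change 0.24, 95% interval −0.10 to 0.58, edgeR adjusted p = 0.376). The annotated span of smc6 overlapped that of vsnl1b, a neuronal calcium sensor gene with log2 fold change −0.13 (edgeR adjusted p = 0.457). vsnl1b was far more abundant, at a mean of 240 CPM in the mutant and 263 CPM in the wild type. Reads of smc6 too may therefore not be fully separated from those of its neighbour, which also bears on its ratio to smc5. The interval of smc6 takes in a rise as large as the 0.47 of rad21a, and that of smc5 does not.

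Ratios within a library do not depend on how libraries are scaled, and they show whether paralogues moved by the same amount. Per length, rad21b was lower relative to rad21a in the mutant (log2 ratio −2.22 ± 0.21) than in the wild type (−1.83 ± 0.09, SD, n = 3 each), with all mutant pools below all wild-type pools (two-sided exact permutation p = 0.1, the smallest that 3 against 3 allows). The log2 ratio of stag2b to stag1b was likewise lower in every mutant pool, at 0.96 ± 0.08 against 1.19 ± 0.08 (exact permutation p = 0.1). In the other 3 ratios the genotypes overlapped. The log2 ratio of smc1al to smc1a was 1.86 ± 0.40 in the mutant and 1.43 ± 0.19 in the wild type (exact permutation p = 0.2). For esco2 to smc3 it was −2.14 ± 0.17 and −2.82 ± 0.45 (exact permutation p = 0.2), and for smc5 to smc6 it was 2.15 ± 0.17 and 2.23 ± 0.24 (exact permutation p = 0.5). Within same-numbered pools the mutant minus wild-type difference was above 0 in 3 of 3 pairs for smc1al to smc1a (0.21 to 0.85) and for esco2 to smc3 (0.30 to 1.14). It was below 0 in 3 of 3 pairs for rad21b to rad21a (−0.54 to −0.27), stag2b to stag1b (−0.41 to −0.12) and smc5 to smc6 (−0.15 to −0.01). After Benjamini-Hochberg adjustment over the 5 ratios the first 4 had an exact permutation p of 0.25 and the last 0.5. Neither this test nor a test of 3 pairs can reach 0.05, so these p-values do not show whether the ratios differed.

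**Figure D3:**
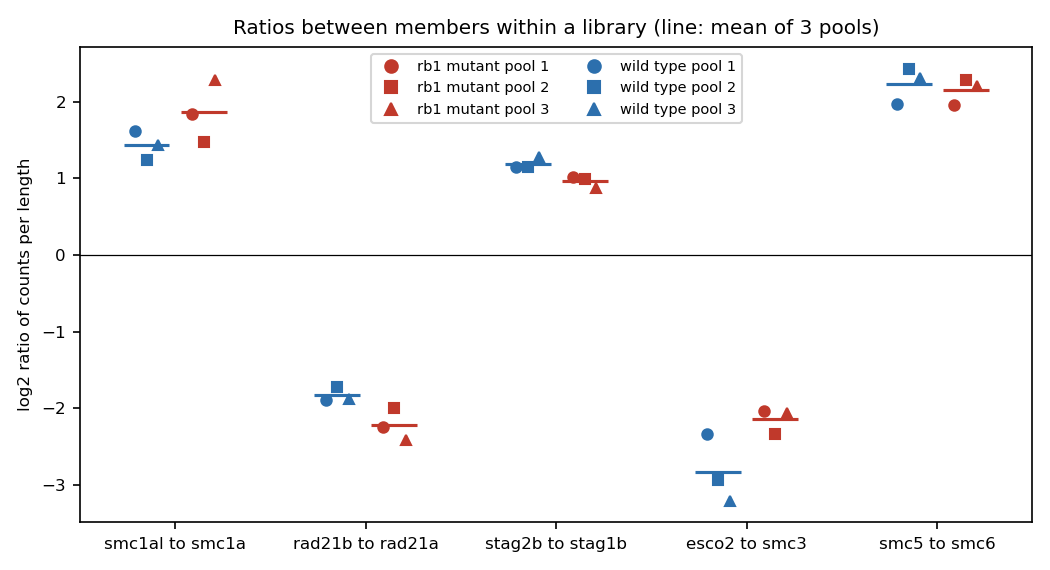
Log2 ratio of counts per length within each library for 5 gene pairs, with 1 point per pool and a line at the mean of each genotype. The mutant pools lie below all wild-type pools for rad21b to rad21a and for stag2b to stag1b, and overlap them in the other pairs.

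The summed levels of paralogues, a measure chosen after the values were seen, were higher in all mutant pools for each of the 3 ring parts encoded by several genes. smc1a and smc1al together stood at 58.0 ± 3.66 FPKM in the mutant and 47.3 ± 1.79 in the wild type, a 1.22-fold difference. For rad21a and rad21b the sums were 185 ± 3.97 and 135 ± 1.79 FPKM, a 1.37-fold difference. The STAG genes stag1a, stag1b, stag2a and stag2b summed to 80.8 ± 4.84 and 71.2 ± 0.678 FPKM, a 1.13-fold difference (two-sided exact permutation p = 0.1 for each of the 3 sums). FPKM values are scaled to the library total and not by TMM. Scaling by total counts raised log2 fold changes by a median of 0.0594 over TMM, so these 3 fold differences are not on the scale of the edgeR values. Of these sums rad21a made up 82.2 ± 2.12% in the mutant and 78.0 ± 1.06% in the wild type, smc1al 78.2 ± 4.68% and 72.9 ± 2.62%, and stag2b 47.7 ± 0.497% and 49.4 ± 1.16%.

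The other genes of the pathway were read from lists by role. Of 34 such genes 31 were tested, 12 rose at an adjusted p of at most 0.05 (3.82% of all genes did), none fell in edgeR or DESeq2 (2.17% of all genes in edgeR), and 4 reached the study's threshold (0.897%), or 3 with the pool number as a block. Before adjustment 20 of them had a p under 0.05 on the higher side and 0 on the lower, again with no share of all genes computed. Their median log2 fold change was 0.44. The count of 12 was 3 without mutant pool 1, 8 without mutant pool 2, 4 without wild-type pool 2 and 5 without wild-type pool 3, and 11 or 12 without the others.

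The establishment and protection factors held most of these calls, with 7 of 11 higher and a median log2 fold change of 0.92. Sororin, the protein that keeps acetylated cohesin on chromatin, is encoded by cdca5, which was at 19.8, 18.8 and 17.8 CPM in the mutant pools and 8.96, 8.43 and 7.0 CPM in the wild-type pools (log2 fold change 1.21, edgeR adjusted p = 0.00319). The shugoshin gene sgol1, whose product guards centromeric cohesin, was at 24.6, 26.1 and 25 CPM against 10.7, 9.13 and 9.29 CPM (log2 fold change 1.38, edgeR adjusted p = 0.00110). Both groups of pools were wide apart, and both genes passed at 0.05 whichever pool was left out. Replication fork factors that support cohesion also rose, namely the clamp-loader subunits dscc1 (1.39, edgeR adjusted p = 0.0196) and chtf18 (0.92, 0.0393), the fork-protection pair tipin (0.89, 0.0213) and timeless (0.44, 0.0374) and the helicase ddx11 (0.59, 0.0491). Their calls depended on the pools kept. dscc1 and tipin lost theirs without mutant pool 1 (edgeR adjusted p = 0.0891 for both), wild-type pool 2 (0.104 and 0.113) or wild-type pool 3 (0.0636 and 0.0793). chtf18 lost it without mutant pool 1 (0.152), mutant pool 2 (0.0642), wild-type pool 2 (0.138) or wild-type pool 3 (0.0776). timeless kept it only without wild-type pool 1 (0.0448), with an edgeR adjusted p of 0.0508 to 0.180 in the other omissions, and ddx11 lost it in all 6 (0.0537 to 0.191). With the pool number as a block, the clamp-loader subunit chtf8 (edgeR adjusted p = 0.0277) and the replisome adaptor wdhd1 (0.0265) were added. That made 9 of 11, in a fit where 5.1% of all genes rose. The other SMC3 acetyltransferase gene, esco1, had a log2 fold change of 0.03 (95% interval −0.17 to 0.24, edgeR adjusted p = 0.864), and the SMC3 deacetylase gene hdac8 one of −0.24 (95% interval −0.54 to 0.06, edgeR adjusted p = 0.315).

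Both genes of the cleavage list rose, and both reached the study's threshold, pttg1 only without the pool number as a block (edgeR adjusted p = 0.0157 with it). Separase, the protease that cuts the kleisin, is encoded by espl1, which was at 53.3, 52.2 and 49.4 CPM in the mutant pools and 24.4, 22.6 and 21.4 CPM in the wild-type pools (log2 fold change 1.18, edgeR adjusted p = 0.00113). Its inhibitor securin is encoded by pttg1, at 4.72, 4.43 and 4.99 CPM against 2.11, 2.53 and 2.29 CPM (log2 fold change 1.03, edgeR adjusted p = 0.00928, and 0.0542 without mutant pool 1). The groups of both were far apart, at 2.26-fold for espl1 and 2.04-fold for pttg1, beside 1.39-fold for rad21a and 1.06-fold for rad21b.

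The loaders and release factors, which open and reload the ring, gave no call in 7 genes at 0.05 in edgeR or DESeq2 (median log2 fold change 0.17). At an unadjusted p under 0.05, for which no share of all genes was computed, 3 were higher. Without mutant pool 3 the release factor partner pds5b passed (edgeR adjusted p = 0.0210). The one with the lowest p was pds5a, which binds cohesin and steers its release, at 113, 116 and 116 CPM in the mutant and 102, 93.2 and 82.5 CPM in the wild type (log2 fold change 0.31, edgeR adjusted p = 0.121). ctcf, which encodes the factor at which cohesin loops are anchored, was at 250 ± 4.0 CPM in the mutant and 195 ± 2.16 CPM in the wild type (log2 fold change 0.36, edgeR adjusted p = 0.0460), and missed the threshold with the pool number as a block (edgeR adjusted p = 0.0591). It passed in 1 of 6 omissions, that of mutant pool 3 (0.0381), and its edgeR adjusted p was 0.195, 0.0841, 0.111, 0.198 and 0.133 without mutant pools 1 and 2 and wild-type pools 1, 2 and 3.

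Of the other cohesin subunits, stag1a (log2 fold change −0.01) and stag2a (0.10) did not pass the edgeR test (adjusted p = 0.968 and 0.570). The meiotic subunit gene stag3 rose from a very low level, with 52, 63 and 36 counts in the mutant pools and 8, 11 and 13 in the wild-type pools (log2 fold change 2.08 ± 0.29 SE, edgeR adjusted p = 0.0106), and lost the call without mutant pool 1 (0.0532) or wild-type pool 2 (0.0598). Of the other meiotic members, the kleisin gene rad21l1 had 7 to 15 counts in the mutant pools and 6 to 12 in the wild-type pools (log2 fold change −0.01, 95% interval −0.98 to 0.96, edgeR adjusted p = 0.993), and smc1b, rec8a and rec8b had too few counts to be tested. The synaptonemal complex gene sycp3, the most changed of the 5 germ cell markers tested, had 90, 142 and 45 counts in the mutant and 5, 6 and 14 in the wild type (log2 fold change 3.30, edgeR adjusted p = 0.0128, and 0.0516 and 0.0776 without mutant pool 1 and wild-type pool 2). The other synaptonemal complex gene of the list, sycp1, had 99, 111 and 89 counts against 73, 128 and 114 (log2 fold change −0.23, edgeR adjusted p = 0.643). The other tested markers, piwil1 (0.43, edgeR adjusted p = 0.401), tdrd1 (0.33, 0.562) and ddx4 (0.12, 0.892), did not pass either. The germ cell genes ddx4, nanos3 and dnd1 had 1 to 14 counts per library. Of the 6 non-SMC subunits of the SMC5/6 ring, 1 rose, nsmce4a, the kleisin of that ring. It was at 8.59, 7.72 and 8.46 CPM in the mutant pools and 5.31, 4.18 and 3.27 CPM in the wild-type pools (log2 fold change 0.96, edgeR adjusted p = 0.0277), and lost the call without mutant pool 1 (0.121), wild-type pool 2 (0.128) or wild-type pool 3 (0.0659). The median of these 6 was 0.49, beside 0.17 and 0.24 for smc5 and smc6.

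**Figure D4:**
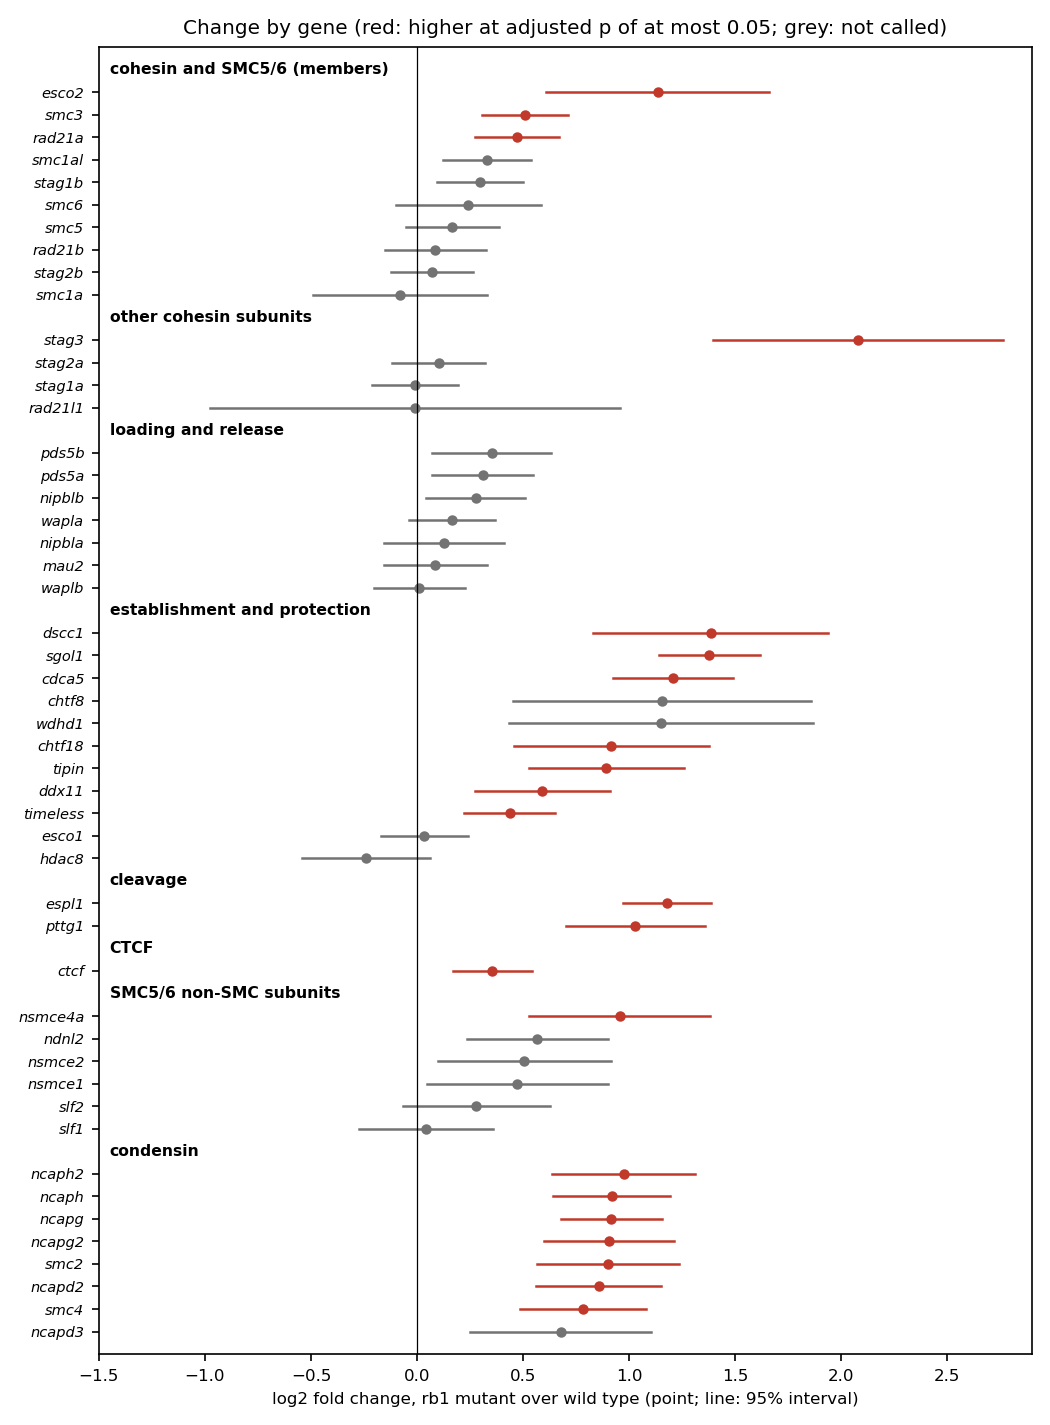
Log2 fold change (mutant over wild type) of the 10 genes, the other pathway genes by list and the condensin genes, with 95% intervals from the edgeR fit, in red where the adjusted p was 0.05 or less and otherwise in grey. esco2 (1.14) sits among the establishment and cleavage genes, while the 7 cohesin ring genes among the 10 lie between −0.08 and 0.51. Outside the 10, the subunit genes stag3 (2.08), nsmce4a (0.96) and ndnl2 (0.57, not called) lie above that range, as do the condensin genes.

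Condensin, the related ring that compacts mitotic chromosomes, served for comparison. Of its 8 subunit genes 7 rose (3.82% of all genes did), and 2 passed the study's threshold (0.897%), or 1 with the pool number as a block. The log2 fold changes ran from 0.68 (ncapd3, not called, edgeR adjusted p = 0.0742) to 0.97 (ncaph2) with a median of 0.90. The count of 7 was 2 without mutant pool 1, 1 without wild-type pool 2, and 7 or 8 without the others. The 7 cohesin ring genes among the 10 had a median of 0.30 and a highest value of 0.51 (smc3). Every condensin gene was thus above each of these 7 on this scale, and esco2 at 1.14 was above them all. This difference between the groups of genes is a description, since genes of 1 library are not independent.

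The order of the 6 libraries by each gene was set beside that by the summed CPM of 8 lists of cell type markers. Over the 15 pairs of libraries, esco2 gave the same order as the proliferating cell markers in all 15, and as the erythroid markers in all 15. The sums of these 2 lists ranked the 6 libraries alike, so the 2 matches are not separate. For esco2 and both sums every mutant pool was above every wild-type pool, so pairs across genotypes had to agree. Only the 6 pairs within a genotype were free to differ, and all 6 agreed. These pairs come from only 3 pools per genotype, so they are not 6 independent matches. smc1a gave the same order as the neuron markers in all 15, although mutant pool 1 and wild-type pool 3 were almost equal in both. The neuron markers summed to 2843, 3189 and 2315 CPM in the mutant pools and 2609, 2894 and 2871 CPM in the wild-type pools, with none of 8 changed in edgeR or DESeq2 (0 at an unadjusted p under 0.05), and mutant pool 3 was lowest both for these and for smc1a. The erythroid markers summed to 122, 58.8 and 94.8 CPM against 54.6, 36.3 and 34.3 CPM, with 3 of the 4 tested risen (0 without mutant pool 1, wild-type pool 2 or wild-type pool 3). Most of this sum was the globin gene hbbe1.1, at 103, 45.2 and 75.8 CPM against 46.1, 28.5 and 27.4 CPM. Its groups overlapped and it was the tested marker that was not called (edgeR adjusted p = 0.0789). These full matches were 3 of 80 combinations of gene and list, and 8 of the 80 matched in all 6 pairs within a genotype. The libraries share their depth and head composition, so the orders are given as descriptions only and their part in the gene changes was not tested.

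**Figure D5:**
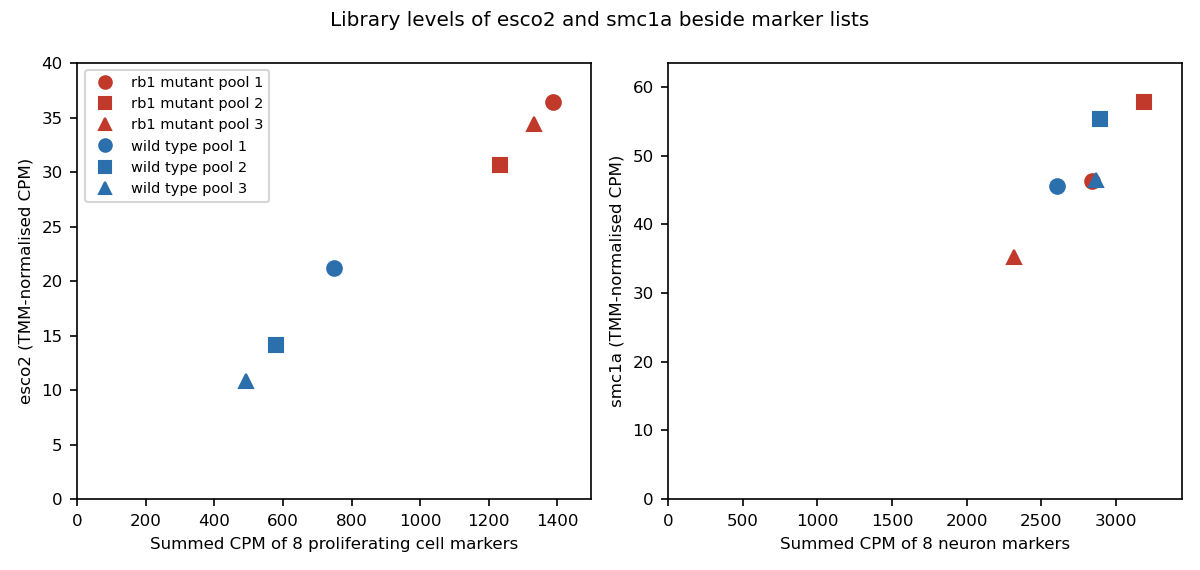
CPM of esco2 against the summed CPM of the proliferating cell markers, and CPM of smc1a against that of the neuron markers, with 1 point per library. In both panels the order of the 6 libraries along the horizontal axis is the same as along the vertical axis.

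Outside the lists, the 5 genes whose log2 CPM followed that of esco2 most closely over the 6 libraries were aldh18a1 (Pearson r = 0.999), cdt1 (0.999), ube2t (0.999), cdc14b (0.999) and nutf2 (0.998). The replication licensing gene cdt1 (log2 fold change 0.97, edgeR adjusted p = 0.0376), the ubiquitin-conjugating enzyme gene ube2t (1.28, 0.0374) and the nuclear transport gene nutf2 (0.58, 0.0451) rose. All 3 lost the call without mutant pool 1, mutant pool 3, wild-type pool 2 or wild-type pool 3 (edgeR adjusted p from 0.0578 to 0.188), and nutf2 also without mutant pool 2 (0.0517). The proline synthesis gene aldh18a1 (0.31, edgeR adjusted p = 0.101) and the phosphatase gene cdc14b (0.32, 0.0812) did not pass the test. They were picked out of 22753 genes over only 6 libraries, so the coefficients describe these libraries alone.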

How the data were processed

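Head RNA of 6 pools (3 per genotype) was sequenced as 50-base single reads in 2 lanes each. Lanes a and b are named in the sample titles. Per the labels and the study's methods, the authors aligned reads with GSNAP to GRCz10, kept unique alignments and made the deposited counts per gene with HTSeq. The deposited FPKM values were computed by the authors from those counts and exon lengths, which was checked on the files. The deposited table of the authors' own comparison (DESeq2 fold changes and p-values) was not used.

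Counts of both lanes were summed and fitted with edgeR 4.0.16 (R 4.3.3; TMM, filterByExpr, quasi-likelihood test, genotype as the only term, Benjamini-Hochberg over 22753 genes), after the script was tested on simulated data. DESeq2 1.42.0 and the other alternatives are given in the closing section. "Rose" and "fell" mean an adjusted p of at most 0.05. Members and lists were chosen with earlier results of these data known. Genes named were all members, rb1, every cohesin or SMC5/6 list gene past 0.05 or else the list's lowest p, the most changed gene of a condensin or marker list, and the 5 genes most like esco2. All other genes named were added after their values were seen. Pools with the same number in the labels shared deviations from the mean of their genotype (r = 0.410, 0.431 and 0.281 for pools 1, 2 and 3). For pools of different numbers r ran from −0.345 to 0.0312. The numbers were therefore taken to pair the samples, a pairing that was read from these same data and is not stated in the sample titles. The main fit did not use this pairing, and the fit with the pool number as a block did. Gene overlaps were read from RefSeq names of the GRCz12tu assembly, whose coordinates are not printed. Permutation tests were exact and two-sided.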

Additional observations from a re-analysis of the deposited data

How the results depend on the processing

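Genes that rose at 0.05 numbered 1316 with total counts and 1463 with DESeq2 (870 in the report), and those that fell 1200 with DESeq2 and 917 under the replicate block by pool number (493). At the study's threshold DESeq2 gave 646 higher and 453 lower (204 and 65). Of the 10 cohesin and SMC5/6 genes 5 rose with total counts and with DESeq2, and 1 reached the study's threshold with DESeq2. Leaving out 1 pool at a time gave 155 to 841 genes higher and 59 to 769 lower at 0.05, 1 to 179 and 0 to 85 at the study's threshold, 0 to 3 and 0 to 1 of the 10 genes at the same thresholds, 3 to 12 of the other pathway genes, and log2 fold changes of rb1 from −1.20 to −0.92. The same omissions moved the ratio differences (log2, mutant minus wild type) over 0.49 to 0.92 for esco2 to smc3, −0.50 to −0.29 for rad21b to rad21a, 0.23 to 0.63 for smc1al to smc1a, −0.2209 to 0.0122 for smc5 to smc6 (0.0094 without mutant pool 1, 0.0122 without wild-type pool 2) and −0.26 to −0.18 for stag2b to stag1b.

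Among the 10 genes and the other pathway genes, signs turned in 5 whose log2 fold changes were near 0. On leaving out 1 pool they ran from −0.2644 to 0.0840 for smc1a, −0.0468 to 0.0360 for stag1a, −0.2992 to 0.2020 for rad21l1, −0.0291 to 0.0761 for waplb and −0.0185 to 0.1558 for slf1. With total counts stag1a stood at 0.0513 and rad21l1 at 0.0529, and from lane b alone waplb stood at −0.0178 and slf1 at −0.0127. The cause of these moves was not tested. Within same-numbered pools the exact sign-flip p was 0.25 for each ratio, the smallest that 3 pairs allow. Among the 10 genes, rb1 and the pathway genes, the block changed no other call at 0.05 than those given for ctcf, chtf8 and wdhd1. With it the edgeR adjusted p was 0.0180 for esco2, 0.0269 for smc3 and 0.0355 for rad21a. At the study's threshold the block took away the call of pttg1 and added rb1 (edgeR adjusted p = 0.00614).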

Other observations

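Of 8 photoreceptor markers 3 fell in the edgeR test (median log2 fold change −0.33), where 2.17% of all genes fell. They were the rod genes gnat1 (−0.74, edgeR adjusted p = 0.0195), rho (−0.69, 0.0161) and pde6a (−0.72, 0.0170). All 3 lost the call without mutant pool 1 (edgeR adjusted p = 0.104, 0.0891 and 0.0916) and without wild-type pool 2 (0.0743, 0.0734 and 0.0628), and gnat1 also without wild-type pool 3 (0.0509). Not every rod or photoreceptor marker was lower. The rod factor gene nrl (0.08, edgeR adjusted p = 0.768) and the photoreceptor factor gene crx (0.14, 0.451) had log2 fold changes above 0 and did not pass. Of 7 microglia and macrophage markers 1 fell, the complement gene c1qb (−1.59, edgeR adjusted p = 0.0374, and 0.0526 with the replicate block). Leaving out any 1 pool took the edgeR adjusted p of c1qb to between 0.0516 and 0.169. Other markers of this list went the other way. Of the 7, 4 had a log2 fold change above 0, the largest being that of p2ry12 (0.75, not called in the main fit). At 0.05, DESeq2 and the fit with the replicate block each called 1 of the 7 higher and 0 lower, and total-count scaling called 2 higher.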
